A study of Rattus norvegicus with 8 samples.

Results

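The expression of 8 genes of guanylin signalling and of the salt transporters linked to it was followed in the colon of rats fed cocoa, cocoa fiber or inulin. They are the peptide hormones guanylin (Guca2a) and uroguanylin (Guca2b), their receptor guanylate cyclase C (Gucy2c), the cGMP-dependent protein kinase II (Prkg2), the chloride channel Cftr, the basolateral sodium-potassium-chloride cotransporter Slc12a2, the chloride-bicarbonate exchanger Slc26a3 and the sodium-proton exchanger Slc9a3. These genes were chosen by their place in the pathway, with earlier results of these data known. Each of the 8 had a probe on the array and passed the filter on dim probes, and they were read out of 19899 genes tested. To pass, a probe had to stand well above background in 4 rats or more.

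The rats were female Wistar, 6 weeks old at the end of 3 weeks of diet, and none carried a genetic change. The reference group (REF) received a standard diet, the C10 group a diet with cocoa, the CF group a diet with cocoa fiber and the I group a diet with inulin, a soluble fiber. RNA came from a piece of the middle colon with all its layers. Arrays were run for 4 rats per diet, of the 10 that received each diet. Each of 8 two-colour Agilent arrays on 1 slide carried the RNA of 2 rats of different diets, 1 in Cy5 and 1 in Cy3. C10 rats shared arrays with REF or CF rats, and so did I rats, whereas C10 and I rats were never on the same array. Levels are given as the normalized log2 signal of a rat after removal of the mean dye difference, so that a step of 1 is a 2-fold change. Levels of different probes cannot be set against each other. Differences between diets are log2 fold changes (log2 FC) from limma with their standard error (SE), fitted with the dye as a term and the array as a block. They can differ from the difference of the group means because rats of the same array were correlated.

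Guanylin and uroguanylin are small peptides that intestinal epithelial cells release into the lumen. They bind guanylate cyclase C on the apical membrane, the same receptor that heat-stable toxins of enteric bacteria use, and raise cGMP inside the cell. The cGMP-dependent kinase II then opens Cftr, through which chloride and bicarbonate leave the cell, and slows sodium uptake through Slc9a3. Slc12a2 loads the cell with chloride from the blood side, and Slc26a3 takes chloride back from the lumen in exchange for bicarbonate. Guanylin is known as the main ligand of the colon, whereas uroguanylin is best known from the small intestine and the kidney.

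The genes of the 2 ligands lie next to each other on chromosome 5 of the rat assembly GRCr8, in RefSeq's annotation. Guca2a runs on the plus strand from 138522446 to 138524288 and Guca2b on the minus strand from 138532160 to 138534210. Their ends face each other across 7871 bases, with 0 annotated genes between. The levels of these neighbours went opposite ways across the rats, as given below. The 250 bases before each start are shown as a description, and their part in the levels was not tested. The Guca2a promoter is at chr5:138522196-138522445 (plus strand) and the Guca2b promoter at chr5:138534211-138534460 (minus strand), both written in the direction of transcription and taken from RefSeq. Capitals mark the matches to 4 short motifs searched on both strands: TATAA (TATA box), TTTAT (core bound by Cdx factors), GTTAAT (part of a site for HNF1 factors) and AGATAA (site for GATA factors, which reads TTATCT on the other strand).
Guca2a: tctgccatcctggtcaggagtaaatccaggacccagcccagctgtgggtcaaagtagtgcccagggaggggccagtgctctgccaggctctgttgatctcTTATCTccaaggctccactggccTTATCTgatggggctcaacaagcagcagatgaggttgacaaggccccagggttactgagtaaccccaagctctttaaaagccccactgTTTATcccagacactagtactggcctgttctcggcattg
Guca2b: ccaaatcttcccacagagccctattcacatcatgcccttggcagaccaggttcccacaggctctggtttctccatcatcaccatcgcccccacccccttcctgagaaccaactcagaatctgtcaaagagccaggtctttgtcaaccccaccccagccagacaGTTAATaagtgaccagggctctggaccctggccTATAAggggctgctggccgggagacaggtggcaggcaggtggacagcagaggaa
In the Guca2a promoter, TTTAT lay 39 to 35 bases before the start and AGATAA, on the opposite strand, at 150 to 145 and at 127 to 122 bases. The Guca2b promoter held TATAA at 54 to 50 bases and GTTAAT at 87 to 82 bases before the start. None of the 4 motifs occurred in both promoters, and no matches overlapped. Among 33469 rat promoters of the same length, TATAA was present in 24 %, TTTAT in 39.3 %, GTTAAT in 6.45 % and AGATAA in 10.3 %. Of the 8 genes, 6 had a promoter entry. The Slc26a3 promoter carried TATAA at 46 to 42 and GTTAAT at 110 to 105 bases, the same pair as Guca2b, and the Cftr promoter TTTAT on the opposite strand at 200 to 196 bases. A match of letters does not show that a factor binds there.

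Before normalization, the median signals were 109.5 to 169 in the rats labelled with Cy3 and 302.5 to 426.5 in those labelled with Cy5. Of the spots, 68.64 to 75.29 % were well above background in Cy3 and 74.27 to 83.9 % in Cy5. Of 9 colon epithelium markers, 8 were measured (not Cdx1), and their mean was 12.79 to 13.8 in every rat, where the lowest signal well above background was 5.821 to 6.215. Of 5 small intestine markers, 4 were measured (not Sis), of which Lct (6.34 to 6.68), Slc5a1 (6.52 to 7.05) and Alpi (6.85 to 7.28) lay near that floor and Fabp2 (10.45 to 12.99) did not. The rats differed in the other tissue that the piece contained. The 6 smooth muscle markers averaged 12.37 in C10 1 and 14.08 to 14.97 in the other rats. The 5 enteroendocrine markers averaged 10.65 to 11.04 in C10 and 10.51 to 11.95 in REF. The 4 measured B cell markers of 6 averaged 8.15 to 10.62 in the rats of arrays 1, 3, 5 and 7 and 6.93 to 7.37 in those of arrays 2, 4, 6 and 8, each set holding 2 rats of every diet. By diet, they spanned 6.93 to 10.15 in REF and 6.94 to 10.18 in C10. The 5 T cell markers were split in the same way, at 8.10 to 9.64 and 7.36 to 7.89. Cd79a and Ms4a1, of the B cell list, were not measured. Posterior Hox genes, which mark the position along the gut, ranged from 6.58 to 9.23 in REF and from 8.83 to 10.41 in C10 as the mean of the 4 measured of 6 (not Hoxa13 and Hoxd11). In such pieces of whole tissue, fewer cells of a type and less RNA per cell cannot be told apart.

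With an adjusted p below 0.05 over all genes of a comparison as the threshold, limma called 0 of the 8 genes in each of the 6 comparisons of diets. Of all genes, it called 0.93 % in C10 against REF, 0.427 % in C10 against CF and 0.563 % in C10 against I, and 0 % in CF against REF, in I against REF and in CF against I. At an unadjusted p below 0.05, uroguanylin was the only gene of the 8, and it passed in 3 comparisons, each time upwards. These were C10 against REF, where 17.2 % of all genes passed, CF against REF (6.34 %) and C10 against I (12.2 %). None of the 8 passed in I against REF (5.72 %), C10 against CF (13.4 %) or CF against I (2.82 %). For 0 of the 8 genes did the 4 rats of one diet lie entirely above or below the 4 of another. Among all genes this occurred for 5 % in C10 against REF, 2.28 % in CF against REF, 2.83 % in I against REF, 4.58 % in C10 against CF, 7.13 % in C10 against I and 1.56 % in CF against I. By rank product, which the methods name, 1 of the 8 was called in C10 against REF and 1 in C10 against I, in both cases Guca2b, beside 1.61 and 1.41 % of all genes.

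Against REF, 7 of the 8 genes had a lower and 1 a higher fitted level in C10, although Slc12a2 and Slc26a3, counted as lower, were at 0.00. Of the 7, only Prkg2 differed by more than its SE (-0.36, SE 0.21). Among all 19899 genes, 9221 were lower. The median log2 FC of the 8 genes was -0.10, beside 0.012 over all genes tested. The median was -0.03 in CF and 0.13 in I against REF. Apart from Guca2b, the log2 FC against REF lay between -0.36 and 0.34 in every diet.

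**Figure D1:**
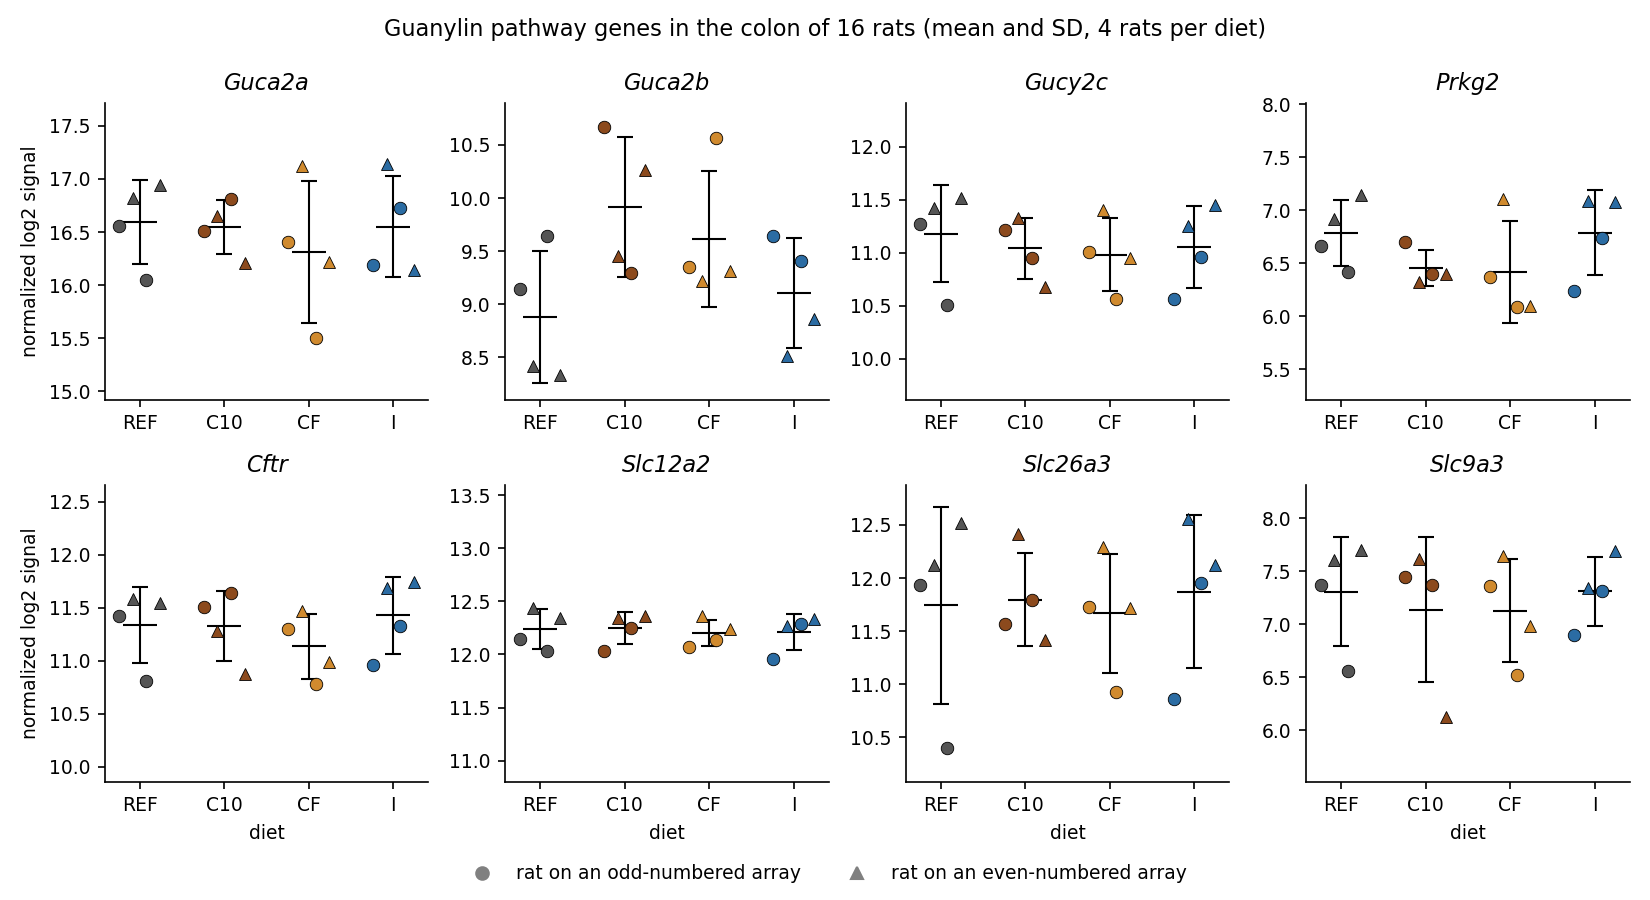
Normalized log2 signal (vertical axis) of the 8 genes in each of the 16 rats, by diet (horizontal axis), with 1 panel per gene. Points are rats, as circles on odd-numbered and triangles on even-numbered arrays, and bars the mean and SD of 4. Guca2b had its 2 lowest values in REF, at 8.33 and 8.42, and its highest in C10, at 10.67. Each of the 8 genes overlapped between the diets.

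Uroguanylin showed the largest difference. Guca2b was at 9.14, 8.42, 9.64 and 8.33 in REF 1 to 4, and at 10.67, 9.45, 9.29 and 10.26 in C10 1 to 4. It was at 9.35, 9.22, 10.57 and 9.31 in the CF rats and at 9.64, 8.51, 9.41 and 8.86 in the I rats. C10 1, CF 3 and C10 4 stood above all others, and REF 3 lay higher than C10 2 and C10 3, so that REF and C10 overlapped. The means were 9.92 ± 0.655 in C10, 9.61 ± 0.639 in CF, 9.10 ± 0.515 in I and 8.89 ± 0.622 in REF (SD, n = 4 rats each). In this order of the diets, no neighbours differed beyond their spread.

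In C10, the log2 FC of Guca2b against REF was 1.16 (SE 0.31, 95 % interval 0.49 to 1.83), a 2.23-fold higher fitted level. It was the 26th largest rise among the 19899 genes. The adjusted p of limma was 0.0861, and an exact permutation test of 4 rats against 4 (two-sided) gave p = 0.114, where 0.0286 is the smallest value it allows. In CF, the log2 FC was 0.80 (SE 0.34, 95 % interval 0.08 to 1.52) with an adjusted p of 0.779. Without CF 3, the rat with 10.57, it was 0.50. In I, it was 0.16 (SE 0.31, 95 % interval -0.50 to 0.83), with an adjusted p of 0.964. C10 exceeded I 2-fold (log2 FC 1, SE 0.34, 95 % interval 0.27 to 1.72, adjusted p 0.248 by limma). C10 and CF differed by 0.36 (SE 0.31, 95 % interval -0.31 to 1.03, adjusted p 0.663 by limma), and CF and I by 0.64 (SE 0.31, 95 % interval -0.03 to 1.30, adjusted p 1 by limma), or by 0.28 without CF 3.

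**Figure D2:**
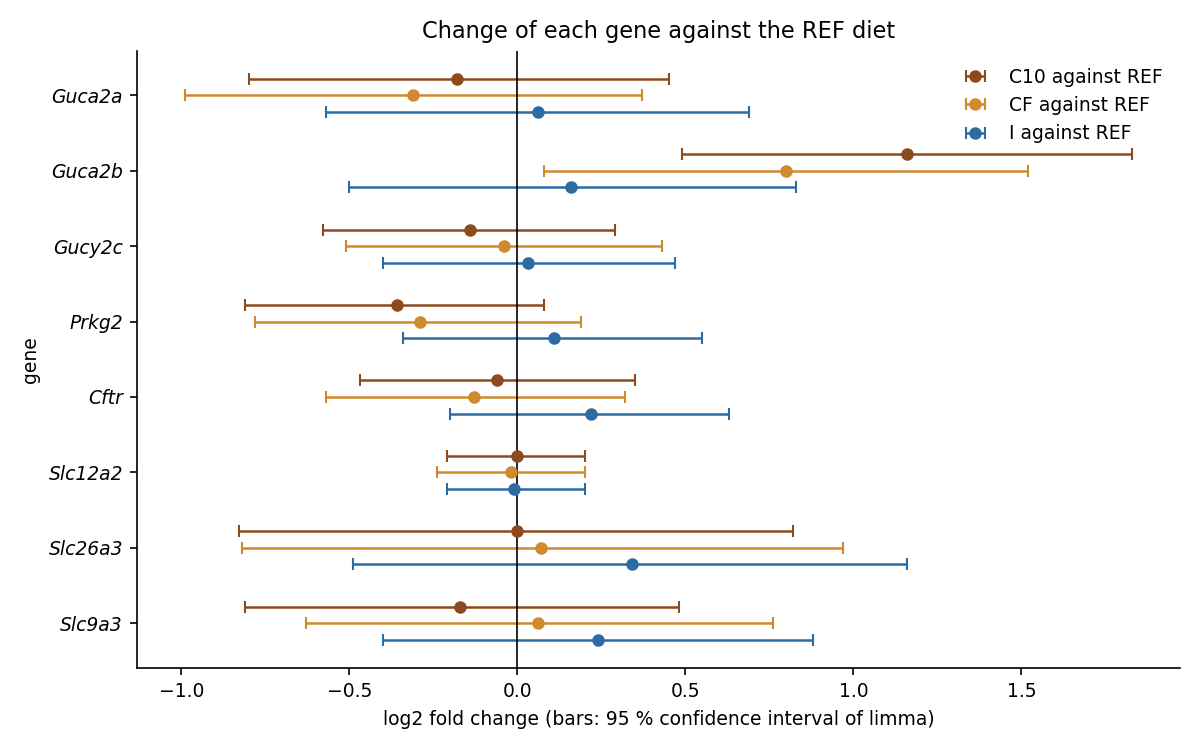
Fitted log2 FC against REF (horizontal axis) of the 8 genes in C10, CF and I, with the 95 % interval from limma. The intervals of Guca2b in C10 (0.49 to 1.83) and CF (0.08 to 1.52) lay above 0 and those of the other 7 genes included 0 in each diet.

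The arrays allow a direct look at pairs of rats that were hybridized together. On the 2 arrays with C10 and REF rats, Guca2b was higher in the C10 rat by 1.53 and 1.03 (log2, dye difference removed). The C10 rat differed from the CF rat of its array by -0.05 and 1.03. On the arrays with CF and I rats, Guca2b was higher in the CF rat by 0.93 and 0.81, and the I rats differed from the REF rats by -0.24 and 0.53. Between C10 and REF, both arrays thus showed the higher level in C10.

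The level of Guca2b also went with the arrays. It was 9.14 to 10.67 (mean 9.71) on arrays 1, 3, 5 and 7, which had the higher B and T cell levels, and 8.33 to 10.26 (mean 9.05) on the others. Within the first set, C10 rats were at 10.67 and 9.29 and REF rats at 9.14 and 9.64, and they overlapped. Within the second, C10 rats were at 9.45 and 10.26 and REF rats at 8.42 and 8.33, without overlap. So few rats per set can separate easily by chance, and no conclusion was drawn from this split. Over both sets together, C10 and REF overlapped. With the B cell level as a covariate, the log2 FC of C10 against REF was 0.99 (adjusted p 0.0567 by limma). With the posterior Hox level it was 0.80 (adjusted p 0.391), and with both 0.72 (adjusted p 0.204). The part of B cells and of the position along the gut in the difference was not tested beyond these fits, which were added after the values were seen. Without both C10 1, the rat with the low muscle level, and C10 4, the rat with the highest posterior Hox level, the log2 FC was 0.56 (adjusted p 0.488 by limma). These rats also had the highest Guca2b in C10 (10.67 and 10.26), so a smaller value had to follow from leaving them out.

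Guca2b passed the threshold in C10 against REF under some other ways of processing. It did so without normalization between arrays (1.26, adjusted p 0.0203 by limma), by rank product (1.03, with a percentage of false prediction of 0.015) and when REF 3 was left out (1.37, adjusted p 0.0351 by limma). Each of these called more of all genes than the 0.93 % above, namely 1.28, 1.61 and 3.46 %. Leaving out 1 rat at a time gave 0.96 to 1.37, with adjusted p from 0.0351 to 0.336. Fitting the log-ratio of each array instead of single channels gave 1.33 with an adjusted p of 0.209.

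**Figure D3:**
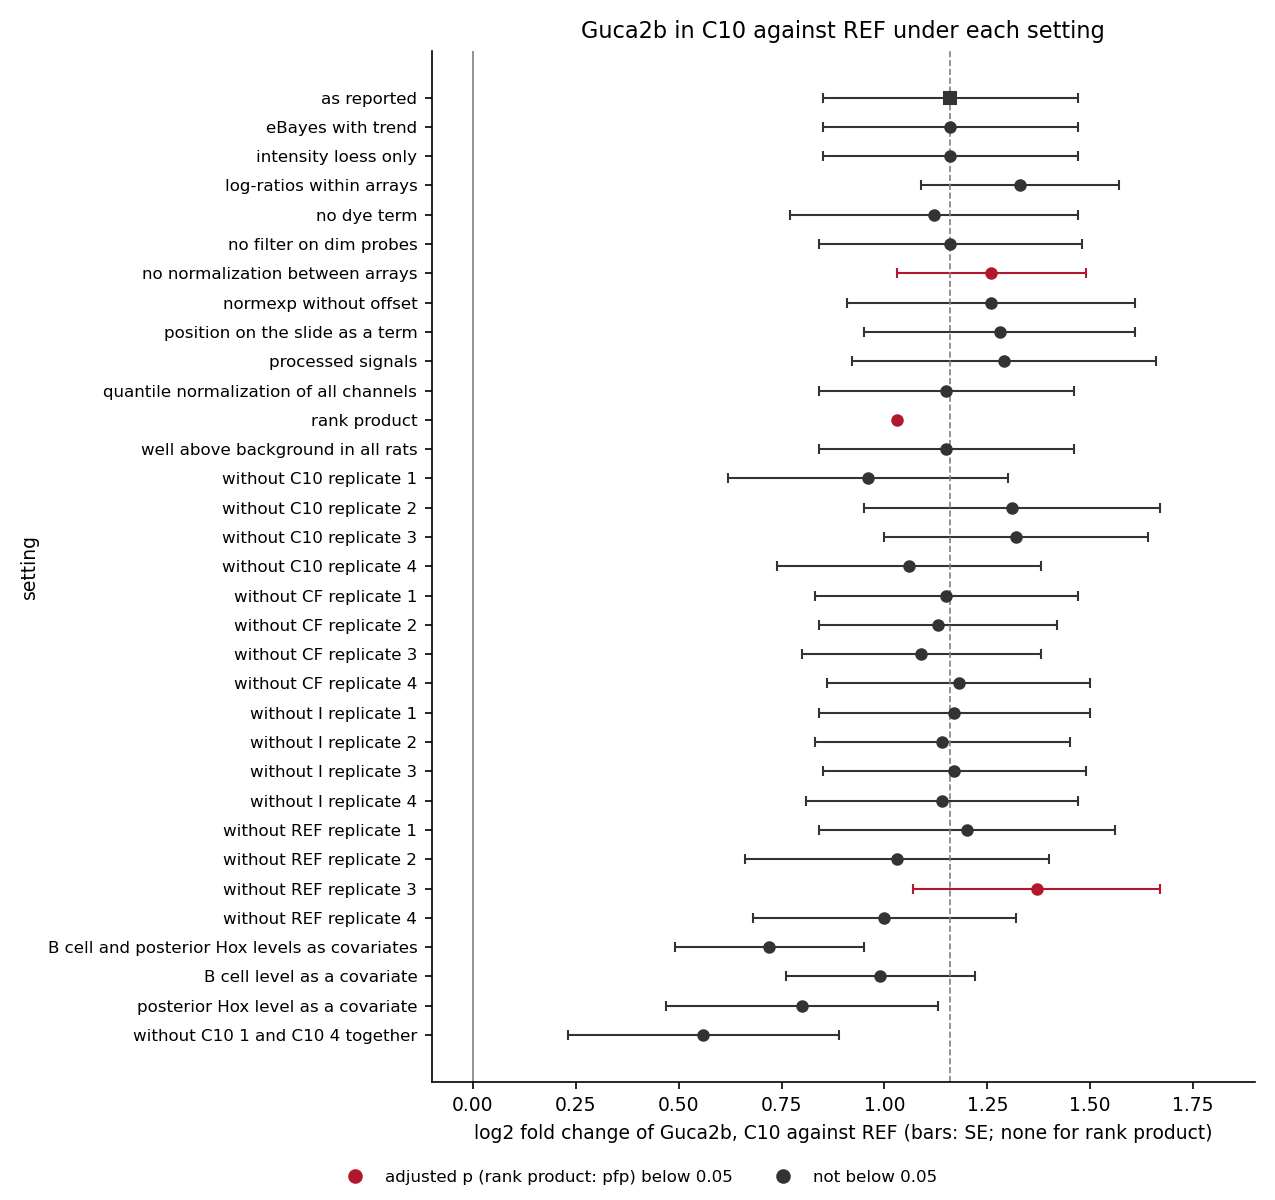
Log2 FC of Guca2b in C10 against REF (horizontal axis) under each way of processing and with each rat left out (vertical axis), with the SE as bars (none for rank product); red points are those with an adjusted p, or a percentage of false prediction, below 0.05, and the dashed line is at 1.16. All values were above 0, from 0.56 without C10 1 and C10 4 to 1.37 without REF 3.

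Guanylin, the other ligand, passed no test between the diets. Guca2a was at 16.56, 16.82, 16.05 and 16.94 in REF, at 16.51, 16.65, 16.81 and 16.21 in C10, at 16.41, 17.12, 15.50 and 16.22 in CF and at 16.19, 17.14, 16.73 and 16.14 in I. All diets overlapped, and CF 3, the CF rat with the highest Guca2b, was the lowest of all 16. The means were 16.59 ± 0.394 in REF, 16.54 ± 0.257 in C10, 16.31 ± 0.664 in CF and 16.55 ± 0.475 in I (SD, n = 4). Against REF, the log2 FC was -0.18 (SE 0.29) in C10, -0.31 (SE 0.32) in CF and 0.06 (SE 0.29) in I, with adjusted p of 0.811, 0.921 and 0.993 by limma. The 95 % interval in C10 was -0.80 to 0.45, and the value turned to 0.35 with the posterior Hox level as a covariate. The probe was bright but not saturated, since 0 spots of any rat were saturated.

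Gucy2c, the receptor of both peptides, stayed within a 2.01-fold range over the 16 rats. The receptor was at 11.27, 11.42, 10.51 and 11.52 in REF, 11.21, 11.33, 10.95 and 10.68 in C10, 11.01, 11.40, 10.56 and 10.95 in CF and 10.56, 11.25, 10.96 and 11.45 in I. All diets overlapped, with a single low rat in REF, in CF and in I. The log2 FC against REF was -0.14 (SE 0.20, 95 % interval -0.58 to 0.29) in C10, -0.04 in CF and 0.03 in I, and the adjusted p in C10 was 0.777 by limma. A second Gucy2c probe correlated with the first over the 16 rats (r = 0.578) and passed no test either.

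Prkg2, the kinase that carries the cGMP signal to the transporters, was close to the lowest measurable signal. Its probe was well above background in 3 of 4 rats in REF, C10 and I and in 2 of 4 in CF, or 11 of 16 in all. The kinase was at 6.66, 6.92, 6.42 and 7.14 in REF, 6.70, 6.32, 6.40 and 6.40 in C10, 6.37, 7.11, 6.09 and 6.10 in CF and 6.24, 7.09, 6.74 and 7.08 in I. C10 2, C10 3 and C10 4, at 6.32 to 6.40, lay just below the lowest REF rat (6.42). C10 1, at 6.70, lay within the REF range, so the groups overlapped. The lowest signal well above background in a rat was 5.821 to 6.215, so the lower values are near that floor. The log2 FC was -0.36 (SE 0.21, 95 % interval -0.81 to 0.08) in C10 against REF and -0.47 (SE 0.23, 95 % interval -0.96 to 0.02) in C10 against I, with adjusted p of 0.405 and 0.429 by limma. In C10 against REF it was -0.76 when no offset was added to the signals and -1.28 with the scanner's own processed signals, without a call, and 0.02 with the posterior Hox level as a covariate.

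Cftr, the channel that the kinase opens, had means of 11.34 ± 0.359 in REF, 11.33 ± 0.331 in C10, 11.14 ± 0.308 in CF and 11.43 ± 0.361 in I (SD, n = 4). Single rats ranged from 10.81 to 11.58 in REF, 10.88 to 11.64 in C10, 10.78 to 11.47 in CF and 10.96 to 11.74 in I, nearly the same span in each diet. Its log2 FC against REF was -0.06 (SE 0.19) in C10, -0.13 (SE 0.21) in CF and 0.22 (SE 0.19) in I, with adjusted p of at least 0.915 by limma. Without REF 3 the value in I was -0.01. A second, dimmer Cftr probe correlated with the first (r = 0.753) and gave -0.27 for CF against I, with an unadjusted p of 0.0321 and an adjusted p of 1 by limma.

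Slc12a2, the basolateral chloride loader, varied least. Over all 16 rats its level ran from 11.96 to 12.44, a 1.39-fold range, read from a probe with 10 spots per array. The means were 12.24 ± 0.185 in REF, 12.24 ± 0.154 in C10, 12.20 ± 0.126 in CF and 12.21 ± 0.169 in I (SD, n = 4). With this probe, every pairwise log2 FC lay between -0.02 and 0.02 with an SE of 0.10, and the 95 % intervals all fell between -0.24 and 0.22. A second Slc12a2 probe, with 1 spot per array, correlated with the first (r = 0.683) and passed no test. It gave 0.11 for I against REF, -0.10 for C10 against I and -0.12 for CF against I.

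Slc26a3, the exchanger that absorbs chloride, varied far more from rat to rat, over a 4.47-fold range. It was at 11.93, 12.12, 10.40 and 12.52 in REF, 11.57, 12.41, 11.79 and 11.42 in C10, 11.73, 12.29, 10.93 and 11.72 in CF and 10.86, 12.56, 11.95 and 12.12 in I. REF 3, I 1 and CF 3 were the low rats, and the remaining REF, CF and I rats reached the level of C10. The log2 FC was 0.00 (SE 0.38, 95 % interval -0.83 to 0.82) in C10, 0.07 (SE 0.42) in CF and 0.34 (SE 0.38) in I against REF. Without REF 3, the values were -0.43 in CF and -0.28 in I. Differences of Slc26a3 within these intervals were not detectable with 4 rats per diet. Only 1 probe with 1 spot per array measured it.

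Slc9a3, the sodium-proton exchanger that cGMP inhibits, was dim, with its probe well above background in 14 of 16 rats. It was at 7.37, 7.60, 6.56 and 7.70 in REF, 7.44, 7.61, 7.37 and 6.13 in C10, 7.36, 7.64, 6.52 and 6.98 in CF and 6.90, 7.34, 7.31 and 7.69 in I. The C10 rats other than C10 4 were at the level of the REF rats other than REF 3. The log2 FC of C10 was -0.17 (SE 0.30, 95 % interval -0.81 to 0.48, adjusted p 0.83 by limma) against REF, and 0.14 without C10 4. A second Slc9a3 probe, also dim but well above background in all 16 rats, followed the first closely over the rats (r = 0.957). It gave 0.01 (SE 0.16) for C10 against REF and no call.

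The 8 genes varied together within diets, in a pattern with uroguanylin on one side and the other 7 on the other. To describe it, each gene's diet mean was subtracted, and the deviations of the 16 rats were correlated. The 21 pairs among the 7 genes other than Guca2b had Pearson's r from 0.34 to 0.92, whereas Guca2b had r from -0.82 to -0.51 with each of them. The receptor and the chloride exchanger, Gucy2c and Slc26a3, were the closest pair (r = 0.92, Spearman's rho 0.88, and r = 0.85 without the 2 rats farthest from the median). Guca2b and Slc26a3 ran most strongly opposite (r = -0.82, rho -0.76, and -0.74 without 2 rats), and the pair of ligands had r = -0.74 (rho -0.81, and -0.68 without 2 rats). Without subtraction of the diet means, the ranges were 0.33 to 0.90 and -0.66 to -0.52. REF 3, CF 3 and I 1 each combined the highest Guca2b of their diet with the lowest Slc26a3 and Gucy2c, and all 3 were on arrays with the higher B cell levels. In C10 this did not hold, since C10 1 had the highest Guca2b (10.67) and C10 4 the lowest Slc26a3 (11.42) and Gucy2c (10.68). C10 4 was on an array with the lower B cell levels.

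**Figure D4:**
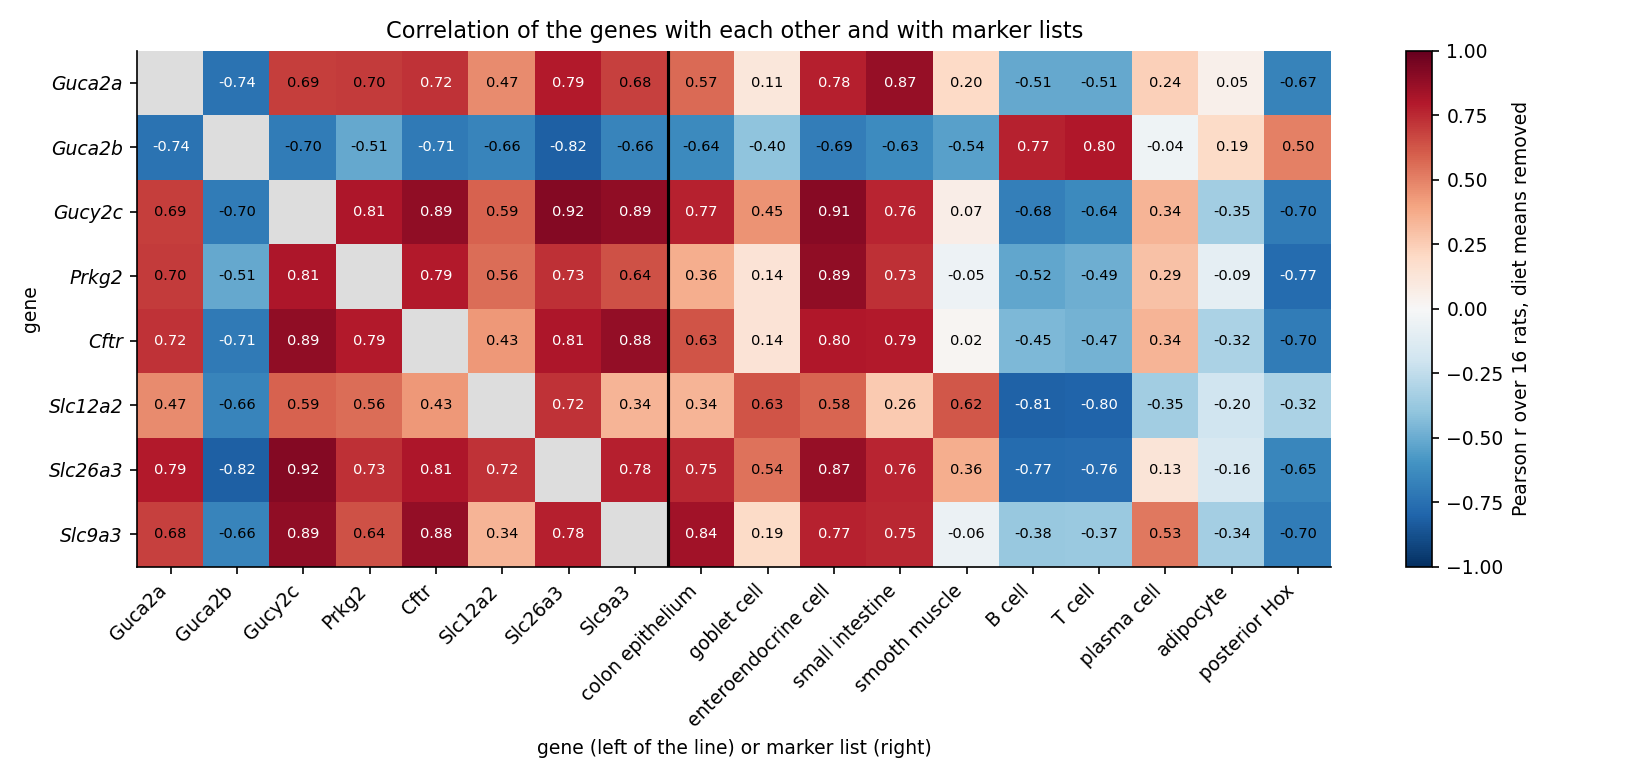
Pearson's r over 16 rats after subtraction of the diet means, between the 8 genes (vertical axis) and the same genes or the marker lists (horizontal axis, left and right of the line), in colour from blue (negative) to red (positive). Guca2b is negative with every other gene, from -0.82 to -0.51, and positive with the B cell list (0.77), and all other pairs of genes are positive, from 0.34 to 0.92.

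Such correlations were common in these samples. Of the other 19898 genes, 16.5 % had r above 0.5 with Guca2b and 17.5 % had r below -0.5. For Slc26a3 the shares were 18.6 and 15.9 %, and for Guca2a 9.73 and 7.87 %. The 16 points share arrays in pairs, and the marker lists moved with the same rats. With the B cell markers Guca2b had r = 0.77 (rho 0.69, and 0.64 without 2 rats) and Slc26a3 r = -0.77 (rho -0.72, and -0.66). With the T cell markers r was 0.80 for Guca2b and -0.76 for Slc26a3. With the 5 enteroendocrine markers Slc26a3 had r = 0.87 and Guca2b r = -0.69, and with the posterior Hox genes Slc26a3 had r = -0.65 and Guca2b r = 0.50. Guca2a had its highest r with the small intestine list (0.87), in which Fabp2 ran from 10.45 to 12.99 while Lct, Slc5a1 and Alpi stayed between 6.34 and 7.28. The part of the cell makeup of the piece in these correlations was not tested.

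The genes whose level over the 16 rats was most like that of the ligands were sought among those with a symbol. For Guca2a they were Prom1 (r = 0.91), a membrane glycoprotein of epithelial protrusions, Ndrg1 (r = 0.89), Nus1 (r = 0.87), Acot7 (r = 0.86), an acyl-CoA thioesterase, and Tmem181 (r = 0.83). For Guca2b they included Hhex (r = 0.92), a homeobox transcription factor, Rps4y2 (r = 0.89), a ribosomal protein, Cbx2 (r = 0.89), a Polycomb protein, and Kdm1b (r = 0.88), a histone demethylase. Without the 2 rats farthest from the median, r was 0.78 to 0.87 for the genes like Guca2a and 0.82 to 0.88 for those named for Guca2b.

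Of the genes around the pathway, 3 lists were read in C10 against REF. The first holds 10 partners of the cGMP signal, among them the PDZ scaffolds that hold receptor, kinase and transporters together at the brush border, and 9 were tested. Limma called 1 of the 9, and 3 were higher and 1 lower at an unadjusted p below 0.05, with a median log2 FC of -0.09. The second holds 13 genes of chloride and bicarbonate transport, of which 12 were tested, 0 called, 2 higher and 1 lower at an unadjusted p below 0.05, with a median of -0.13. In the third, 14 genes of sodium and potassium transport, 14 were tested, 0 called, 5 higher and 0 lower, with a median of 0.11. Over all genes the median was 0.012, limma called 0.93 % and 17.2 % passed the unadjusted threshold.

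The gene called was Nherf4 (also Pdzd3), a PDZ scaffold that binds the tail of guanylate cyclase C. It was at 7.82, 7.69, 7.72 and 7.42 in REF and at 8.14, 8.46, 8.27 and 8.73 in C10, and the groups did not overlap. In CF it was at 8.16, 7.72, 7.72 and 7.90 and in I at 7.25, 7.55, 7.77 and 7.70. Nherf4 rose in C10 against REF by a log2 FC of 0.72 (SE 0.15, adjusted p 0.0377 by limma; exact permutation p = 0.0286, the smallest it can give) and exceeded I by 0.76 (SE 0.16, adjusted p 0.0491 by limma). Against REF, the log2 FC was 0.24 in CF and -0.05 in I, with adjusted p of 0.875 and 0.983 by limma, and C10 exceeded CF by 0.48 (adjusted p 0.171). The call held in 18 of 32 other ways of processing for C10 against REF, with values from 0.48 to 1.01, and in 13 of 32 for C10 against I, with values from 0.58 to 1.14. With the posterior Hox level as a covariate, the log2 FC against REF was 0.48 (adjusted p 0.196), and with log-ratios of arrays 0.69 (adjusted p 0.293). For C10 against REF, the call was lost without REF 2 (0.71), REF 4 (0.63), C10 2 (0.68), CF 3 (0.72), CF 4 (0.72), I 2 (0.71), I 3 (0.71) or I 4 (0.71), with adjusted p from 0.0517 to 0.158 by limma. For C10 against I, it was lost without REF 2 (0.76), REF 3 (0.76), C10 2 (0.73), C10 3 (0.84), C10 4 (0.58), CF 2 (0.70), CF 3 (0.78), CF 4 (0.76), I 1 (0.66), I 2 (0.74), I 3 (0.81) or I 4 (0.85), with adjusted p from 0.0622 to 0.187 by limma. Its level was higher in each C10 rat than in any REF or I rat. Among all genes, groups did not overlap for 5 % in C10 against REF and 7.13 % in C10 against I.

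**Figure D5:**
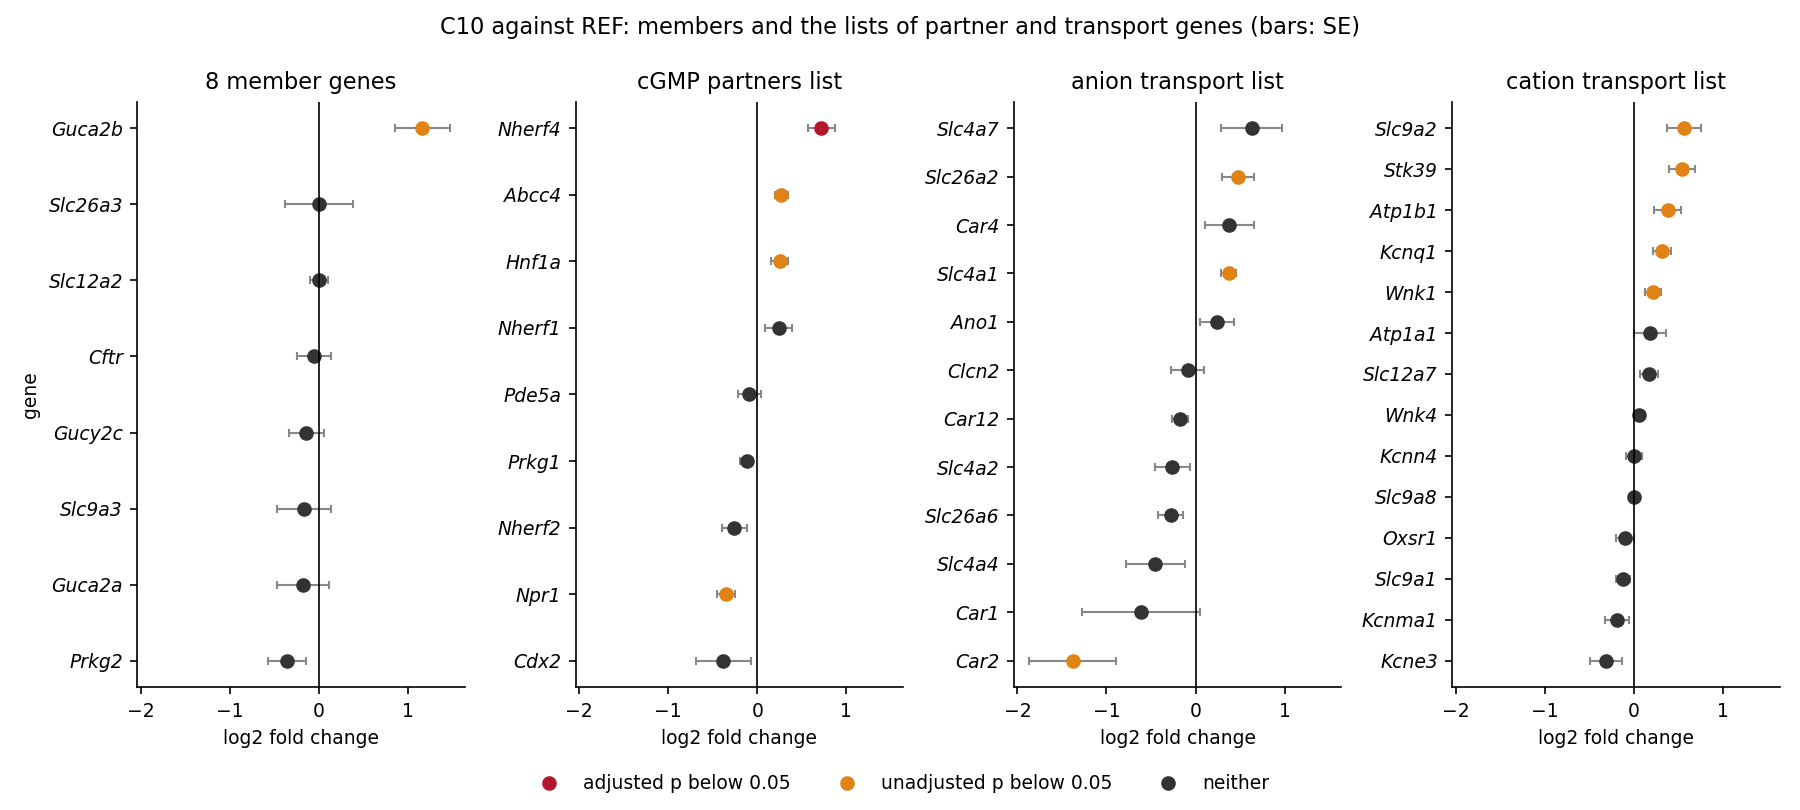
Fitted log2 FC in C10 against REF (horizontal axis) of the 8 genes and of each tested gene of the 3 lists around the pathway (vertical axis), with the SE as bars; red points have an adjusted p and orange points an unadjusted p below 0.05. Nherf4, at 0.72, is the only red point, and Car2, at -1.38, lies farthest from 0.

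The other genes with the largest differences of each list were not called. In the first list these were Cdx2 (-0.38, SE 0.31), a transcription factor of the intestinal epithelium, and Npr1 (-0.35, SE 0.10), the receptor of atrial natriuretic peptide, with adjusted p of 0.584 and 0.0904 by limma. In the second, Car2, the cytosolic carbonic anhydrase that supplies bicarbonate, was at 14.28, 14.61, 13.46 and 14.71 in REF and at 13.82, 13.03, 13.52 and 11.14 in C10, a log2 FC of -1.38 (SE 0.49, adjusted p 0.175 by limma). C10 4 was the lowest of the 16 rats here, as it was for Slc9a3. Car1, another carbonic anhydrase (-0.61, SE 0.66), and Slc4a7, a sodium-bicarbonate cotransporter (0.63, SE 0.34), had adjusted p of 0.691 and 0.362. In the third list, Slc9a2, a sodium-proton exchanger related to Slc9a3, was higher in each C10 rat than in any REF rat (0.56, SE 0.19, adjusted p 0.156 by limma). Stk39, a kinase that activates Slc12a2, likewise did not overlap (0.54, SE 0.15, adjusted p 0.0954 by limma). Among all genes, 5 % did not overlap between C10 and REF. Atp1b1, a subunit of the sodium pump, had 0.38 (SE 0.15, adjusted p 0.221 by limma).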

How the data were processed

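The labels gave the diet and dye of 16 rats, 4 per diet, on 8 arrays. The authors deposited unnormalized scanner output with the median intensity per spot and dye and its local background; the submitters' notes name Agilent Feature Extraction 10.7.3.1. The normalized series table was left out because no label matches its columns. The labels give each rat 1 array and dye, while the methods describe dye swaps.

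Background correction (normexp, offset 50), spatial loess (span 0.4), intensity loess (span 0.3) and Aquantile followed the methods, with offset and spans chosen here (limma 3.58.1, statmod 1.5.0, data.table version 1.17.8, under R 4.3.3). Of 62976 spots, 58717 were not controls. Of 30367 probes, 22537 passed the filter. The brightest probe stood for each of the 19899 genes, 11921 of them with a symbol in RefSeq. limma was fitted with diet and dye as terms and the array as a random block (correlation 0.419), with moderated errors, and p-values were adjusted (Benjamini-Hochberg) over all genes. They measure the spread between these rats, and the number of arrays limits the precision. The scripts were tested on simulated data.

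The genes and lists were chosen with earlier results of these data known. Named are the 8 genes, list genes with an adjusted p below 0.05, the 3 largest differences of each list in C10 against REF, and the 5 genes most like each ligand, of which 1 is not reported here. Alternatives changed the background correction, the normalization, the filter, the probe, the model or the test (rank product, 100 permutations) or left out each rat. A difference had a direction only where larger than its SE (14 of 48). Tables and figures were made with Python 3.11.15, pandas 2.3.3 and matplotlib 3.10.9.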

Additional observations from a re-analysis of the deposited data

Results flagged for a closer look

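Each of the 8 genes was examined in each diet for a single rat far from the other 3 (Dixon's test at the 95 % level), and 3 of 32 groups held such a rat. Chance gives about 1 in 20. Guca2b was at 10.57 in CF 3, where the other CF rats lay between 9.22 and 9.35. The same rat was the lowest of the 16 for Guca2a, at 15.50, and for Cftr, at 10.78. Slc12a2 was at 11.96 in I 1, below 12.27 to 12.33 in the other I rats. Slc9a3 was at 6.13 in C10 4, below 7.37 to 7.61 in the other C10 rats.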

How the results depend on the processing

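Each difference was recomputed under 31 to 33 other settings, 16 of them with 1 rat left out and 4 chosen after seeing the data. Of 1554 values for the 8 genes, 1541 kept their side of the threshold and, where larger than the SE, their direction, or else moved by less than the spread between rats. The number of the 8 genes called in C10 against REF, 0, became 1 without normalization between arrays, 1 by rank product, and 0 to 1 with each rat left out in turn, the 1 without REF 3. Of all genes, these settings called 254, 321 and 688, against 185 as reported. In C10 against I it became 1 by rank product, which called 281 of all genes, against 112. In each case the gene was Guca2b, and the cause was not tested. Cftr in I against REF ran from -0.01 to 0.31 with each rat left out. Added after the values were seen, the posterior Hox level as a covariate turned Prkg2 to 0.02 and Guca2a to 0.35 in C10 against REF. With both covariates, B cell and posterior Hox, they were 0.04 and 0.39, Cftr was 0.28 and Slc9a3 0.36, also turned, and Slc9a3 in C10 against I was 0.02, all without a call. Without C10 1 and C10 4 together, the C10 rats with the highest Guca2b, Guca2b in C10 against CF was -0.27. No paired analysis by replicate number was possible because these numbers only name the rats. The rats were paired by array instead, as the block of the model and in the log-ratios within arrays. Dim probes limit Prkg2 and Slc9a3, whose lowest values lie near background.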
